A study of Rattus norvegicus with 40 samples.

Results

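The comparison described here set polysome RNA against total RNA in the livers of 3 adult Sprague Dawley rats (125 to 150 g) that had been fasted for 48 h, injected intraperitoneally with DMSO, and given food freely from 1 h later until they were killed 3 h after that. It used 6 of the 40 Affymetrix Rat Gene 1.0 ST arrays of the series: the 3 polysome and 3 total RNA arrays of this refed, non-proliferating model, chosen by their labels and paired by replicate number. The question was which mRNAs were over- or under-represented on polysomes relative to the whole RNA pool of refed adult liver. Further sets of arrays served as points of reference: 6 from refed rats given rapamycin (250 μg per 100 g body weight) in place of DMSO, 6 from DMSO-treated rats 24 h after partial hepatectomy, and 8 from fetal livers collected on day E20, 1 day after an injection of DMSO. Per the labels these are biological replicates, and each replicate number was taken as 1 liver.

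Polysomes are mRNAs that carry several ribosomes at once, and a sucrose density gradient separates them from single ribosomes, free subunits and free mRNA. An mRNA is depleted from polysomes when it is not being translated, when it is held in the nucleus or in silent particles, or when its reading frame is so short that few ribosomes fit on it and it sediments with lighter material. Feeding after a fast activates mTORC1, a kinase complex that rapamycin inhibits and on which the translation of mRNAs with a 5′ terminal oligopyrimidine (TOP) tract, above all those of the ribosomal proteins, depends strongly. In hepatocytes much of the translating ribosome pool sits on the endoplasmic reticulum and makes plasma proteins.

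Each value was a log2 intensity from RMA-normalised data, and a difference is polysome minus total within a liver. The same amount of RNA (100 ng) was labelled for every array and RMA brings arrays to a like scale, so a value is a share of the RNA within its fraction. Array medians still ranged from 7.09 to 7.26 over the 6 arrays. A shift common to all mRNAs cannot be told from the scaling, and fewer cells of a type and less of an mRNA per cell cannot be told apart. Per the labels, polysome RNA came from pooled preparations by acid phenol-chloroform extraction and total RNA from frozen liver by guanidine thiocyanate and cesium chloride, so the way of extraction and the fraction cannot be told apart. The gradient fractions taken as polysomes and the make-up of each pool were not known here.

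Of 10860 transcript clusters tested (the array's units, each about 1 gene, with a mean log2 intensity of at least 6.6 over the 12 refed arrays), 3435 were higher in polysome RNA (31.6%) and 1206 lower (11.1%) by limma with the liver as a block, at a Benjamini-Hochberg adjusted p under 0.05. Differences above 1.5-fold accounted for 2021 of the higher and 408 of the lower clusters, and differences above 2-fold for 648 and 51. In 4562 of the 4641 called clusters (98.3%) all 3 livers moved the same way. The calls came from a paired fit to these same livers, which favours such clusters, so this share is no separate check. All 3 polysome arrays lay above all 3 total arrays in 25.8% of the clusters tested and below them in 11.1%. The excess of higher calls depended on the scaling of the arrays. Higher clusters made up 74% of the calls on the deposited scale, 51.3% after cyclic loess and 34.9% after the medians of the tested clusters were made equal in every array, while the median difference over all tested clusters went from 0.10 to -0.03 and -0.16. Groups of genes are therefore read below against the median of all clusters, 0.10, and where the median of a group turned sign with the scaling this is said.

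**Figure D1:**
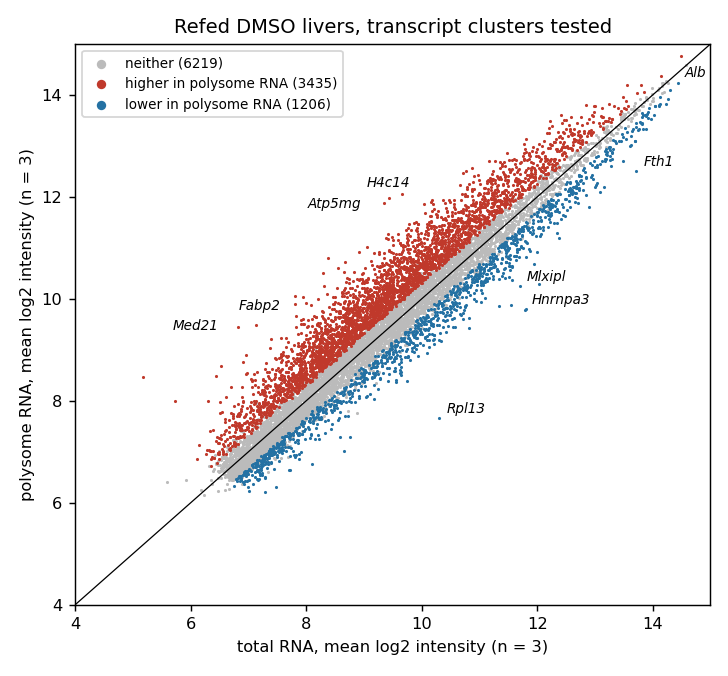
Mean log2 intensity in total RNA (x axis) and polysome RNA (y axis) of the refed DMSO livers, 1 point per tested transcript cluster (n = 3 arrays per axis), coloured by the test. The line marks equal values. Med21, H4c14, Atp5mg and Fabp2 stand far above it, Rpl13 (1 of its clusters), Hnrnpa3, Mlxipl and Fth1 below it, and Alb lies close to it near the top of the scale.

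The livers did not differ to the same degree. The root mean square difference between the fractions over all tested clusters was 0.61 in liver 1, 0.40 in liver 2 and 0.68 in liver 3. Without liver 3 the counts fell to 1989 higher and 492 lower clusters. The total RNA arrays also differed in the level of genes of long genomic span, a property examined after the data had been seen. In the 3 polysome arrays the median log2 intensity of the longest of 5 equal groups of genes exceeded that of the shortest by 0.13, 0.17 and 0.08, whereas in the total RNA arrays the excess was 0.85, 0.33 and 0.57. In liver 2 the polysome minus total difference hardly changed with gene span (0.12 in the shortest group, 0.10 in the longest), while it went from 0.32 to -0.15 in liver 1 and from 0.29 to -0.06 in liver 3. Over the 3 livers, 43.6% of the shortest genes (125 to 7034 bp) were called higher and 7.16% lower, against 15.4% and 15% of the longest (62489 bp and over). The part of this in the results was not tested. Each group below is therefore given liver by liver where it matters.

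**Figure D2:**
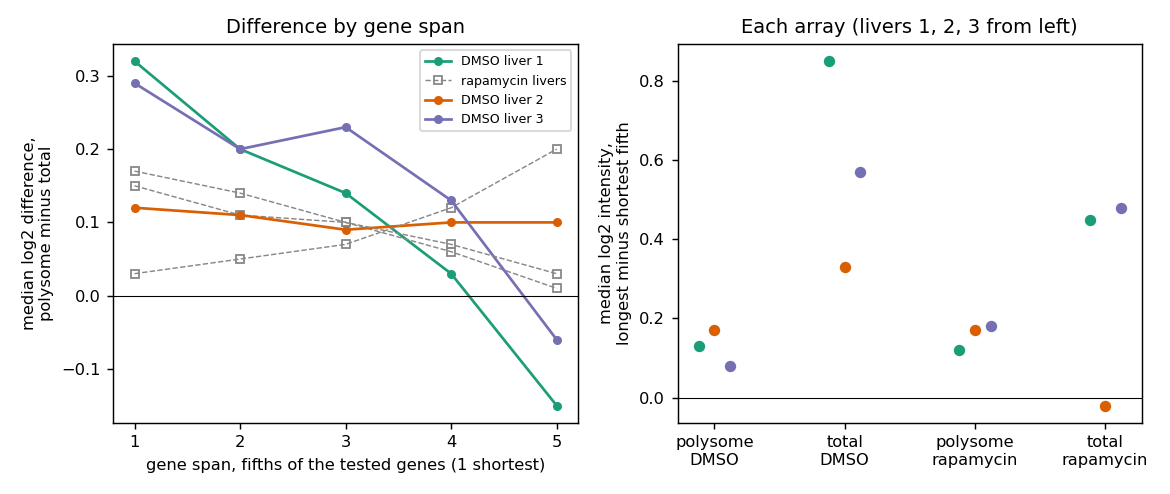
Left, the median polysome minus total log2 difference of genes in 5 equal groups by genomic span, 1 line per refed liver (solid DMSO, dashed rapamycin). Right, the median log2 intensity of the longest group minus that of the shortest in each of the 12 refed arrays. Polysome arrays lie between 0.08 and 0.18, and total RNA arrays spread from -0.02 to 0.85.

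The mRNAs richest on polysomes included those of Med21, Dbi, Fabp2 and Atp5mg, each over 5-fold higher than in total RNA. Med21, a subunit of the Mediator complex that links transcription factors to RNA polymerase II, measured 9.17, 9.55 and 9.62 in polysome RNA and 6.80, 6.95 and 6.69 in total RNA of livers 1 to 3. The groups did not overlap, and the difference was 2.64 (SE 0.14, 6.22-fold, adjusted p = 2.47e-05). Dbi, the acyl-CoA binding protein, measured 11.95, 12.29 and 11.96 on polysomes and 9.56, 10.48 and 8.93 in total RNA, a 5.31-fold difference (adjusted p = 0.000111). The total RNA value was highest in liver 2, as in Fabp2, Mrps16 and Gpx4, and the polysome values lay closer together. Fabp2, a fatty acid binding protein, was 5.11-fold higher (adjusted p = 2.47e-05), with 9.49, 9.62 and 9.37 on polysomes and 7.23, 7.47 and 6.72 in total RNA. Atp5mg, a subunit of the mitochondrial ATP synthase, was 5.82-fold higher, the proteasome assembly factor Psmg4 5.38-fold, and H4c14, which encodes histone H4, 5.90-fold. The 15 genes with the largest positive differences, each by its most extreme cluster, ranged from 2.05 to 3.29 and also held Mrpl41, Rpl22l1, Tmem256, Cstb, Rpa3, Siva1, Rpl22, Atp5mk and Mrpl36. None of the 15 had overlapping groups, but they were chosen by size of difference in these same arrays, so this is no separate check. Mrpl41, at the head with 3.29, rested on a cluster whose total RNA values were 5.71, 5.74 and 4.09, at the low end of the array; its other, brighter cluster gave 1.72.

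The mRNAs poorest on polysomes included those of Hnrnpa3, Sptbn1 and Mlxipl. Hnrnpa3, an RNA binding protein of the nucleus, measured, in 1 of its 6 clusters, 9.66, 9.85 and 9.84 on polysomes and 11.66, 11.77 and 11.91 in total RNA. In this cluster the groups were far apart in every liver, at -1.99 (SE 0.13, 3.98-fold lower, adjusted p = 5.87e-05), but this is its most extreme cluster. Of its 5 others 4 were called lower, at -0.71, -0.72, -0.79 and -1.74, and 1 was not (-0.19); the brightest gave -0.71. Sptbn1, the beta chain of non-erythroid spectrin, measured 9.93, 9.80 and 9.92 on polysomes against 11.75, 11.08 and 11.80 in total RNA, 3.17-fold lower (adjusted p = 0.000201). Mlxipl (ChREBP), the glucose-responsive transcription factor of fed liver, measured 10.37, 10.52 and 9.85 on polysomes against 12.45, 10.99 and 11.66 in total RNA, 2.74-fold lower (adjusted p = 0.00283). Its groups did not overlap, but the difference was -2.08 and -1.81 in livers 1 and 3 and -0.47 in liver 2. The lowest value of all, -2.65, belonged to 1 of 6 tested clusters named Rpl13; 3 of the others were called higher (up to 1.44) and 2 in neither direction, so this value cannot be taken for the gene. Cross-hybridisation among ribosomal protein genes and their pseudogenes was not tested. The 15 poorest, from -2.65 to -1.19, also held Rpph1, Slfn4, Dmbt1, Ccdc107, Abcc6, Lipogenin, Col14a1, Prss53, Fth1, Ccnl2 and Adam11, and groups overlapped in 2 of them.

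**Figure D3:**
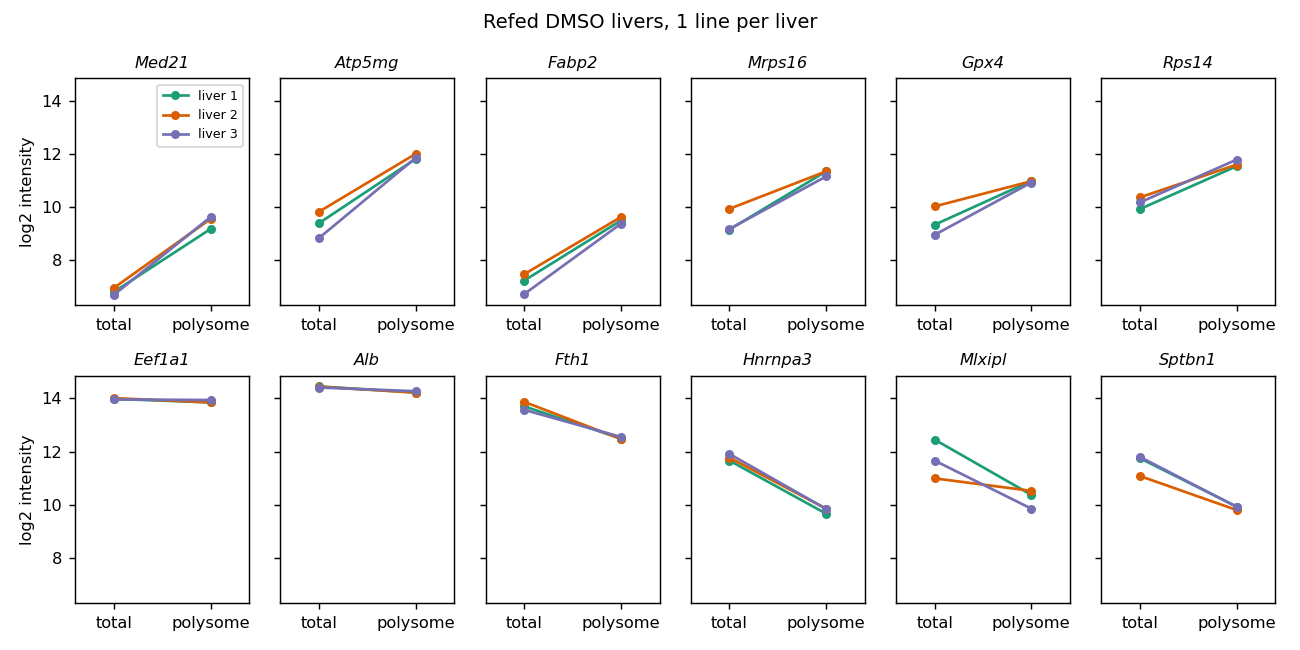
Log2 intensity in total and polysome RNA of each refed DMSO liver for 12 genes, 1 line per liver. The upper genes rise in all 3 livers, Eef1a1 and Alb are nearly level at the top of the scale, and Fth1, Hnrnpa3, Mlxipl and Sptbn1 fall, Mlxipl least in liver 2.

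Transcripts that are not translated offered a check of the fraction. Rpph1, the RNA component of ribonuclease P, measured 10.28, 9.51 and 9.64 in polysome RNA and 11.61, 12.35 and 11.48 in total RNA, 4.01-fold lower with no overlap (adjusted p = 0.000482). The long non-coding RNA H19 was lower in each of its 2 clusters (-0.96 and -1.07), and Tug1 (-0.45) and Meg3 (-0.47) were lower as well. Of 6 tested members of the list of long non-coding RNAs and snoRNA hosts, 4 were lower (2 without liver 3) and 1 higher, with a median of -0.46. The exception was Terc, the RNA template of telomerase, at 0.77 (adjusted p = 0.00279). Over every cluster annotated in RefSeq as non-coding or as a pseudogene, 8 of 27 were lower and 4 higher, with both H19 clusters counted. Over all tested clusters 11.1% were lower and 31.6% higher. Besides Terc the higher ones were the annotated long non-coding RNAs Smim30l1 (1.13) and 2810025M15Rikl (0.65) and a cluster of the pseudogene Ndufs6-ps1 (0.72).

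The mRNAs of the cytosolic ribosome were richer on polysomes almost throughout. Of 71 genes on the array 70 were tested: 62 were higher, none was lower, and 8 did not pass the test. The median difference was 0.78, against 0.10 over all clusters, and 0.84, 0.43 and 0.92 in livers 1, 2 and 3. Rps14, of the small subunit, measured 11.53, 11.59 and 11.78 on polysomes and 9.92, 10.36 and 10.17 in total RNA, a 2.80-fold difference with no overlap (adjusted p = 0.000131). Fau, which encodes a ubiquitin-like protein fused to the small-subunit protein S30, was 3.06-fold higher. Rpl22l1, a paralogue of Rpl22, was also called higher, but its total RNA values of 5.43, 6.07 and 5.68 were at the low end of the array, where the size of a difference is uncertain. The 8 that did not pass were Rpl3 (-0.03), Rps2 (0.01), Rps4x, Rpl10, Rpl41, Rplp0, Rpsa and Rps18 (-0.02), although a further cluster of Rps18 was called higher at 1.09. With the mean over all clusters of a gene in place of 1 cluster the median of the list was 0.70, and it was 0.54 and 0.52 under the other scalings.

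RefSeq start sites of the rat genome (GRCr8) were searched for the TOP tract on the coding strand. The tract was taken as a C within 5 bases of the annotated start, counted with the unbroken C or T after it, at least 5 bases in all. The base before this C was free, so a longer run of C or T could begin upstream of it. Such a tract was present in 37 of 60 ribosomal protein genes with a RefSeq start (61.7%), against 17% of 27457 symbols in that table. The 30-base windows of 4 genes, 10 bases before the start and 20 from it, were picked after their values were seen and are shown because they carry the tract (capitals) yet the mRNAs differed on polysomes, the upper pair being rich and the lower pair not.
Rps24 (chr16:96507-96536, plus strand): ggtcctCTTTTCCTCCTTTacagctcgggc
Rpl37a (chr9:81748081-81748110, plus strand): cccgttgcgtCTCTTCCTCTTCgggcttgg
Rplp0 (chr12:46718371-46718400, minus strand): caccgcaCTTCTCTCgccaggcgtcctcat
Eef1a1 (chr8:88225050-88225079, minus strand): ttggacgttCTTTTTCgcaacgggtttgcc

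Rps24 differed by 1.39 and Rpl37a by 0.78, but Rplp0, the stalk protein, by 0.22 (adjusted p = 0.201) and Eef1a1, the elongation factor that brings aminoacyl-tRNA to the ribosome, by -0.10 (adjusted p = 0.202). Within the ribosomal protein genes the median was 0.79 with the tract and 0.65 without it. Over all 8464 tested genes with a RefSeq start it was 0.14 with the tract (35.9% higher, 10.2% lower) and 0.10 without it (31.7% and 11%). A run of these letters is a description and not a mapped start. The 21 tested TOP mRNAs outside the ribosomal proteins were mixed, with 9 higher and 5 lower and a median of 0.18 that turned to -0.01 and -0.08 under the other scalings. Eif3k (0.80), Eef1d (0.69) and Btf3 (0.65) were higher. Hnrnpa1 (-0.71) and Eef2, the translocation factor (-0.25, adjusted p = 0.0425), were lower, and Tpt1, a growth-linked TOP mRNA, was at 0.17 (adjusted p = 0.123). Without liver 1 the higher members numbered 4 and the lower 1, and without liver 3 they numbered 3 and 1. Eef2 did not pass without either of these livers.

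The mRNAs of the mitochondrial ribosome and of nuclear-encoded oxidative phosphorylation subunits were richer on polysomes in most genes measured. All 69 listed mitochondrial ribosomal proteins on the array were tested, 68 were higher and none lower, and the median was 1.02 (1.12, 0.59 and 1.27 by liver). Mrps16 measured 11.34, 11.34 and 11.15 on polysomes and 9.15, 9.93 and 9.17 in total RNA, 3.63-fold higher without overlap (adjusted p = 0.000132). Mrps33 (3.65-fold) and Mrps18c (1.81) behaved alike, and the lowest member, Mrps28, was at 0.27. The subunits of oxidative phosphorylation followed, with 60 of 68 higher, 1 lower and a median of 0.96 (1.13, 0.56 and 1.24 by liver). Ndufb2, an accessory subunit of complex I, measured 10.76, 11.29 and 10.70 on polysomes and 8.71, 9.72 and 8.34 in total RNA, a 3.98-fold difference. Ndufs1, the largest subunit of complex I, was the 1 lower gene (-0.34), and no gene was lower without liver 1 or without liver 3. Sdha, the flavoprotein of complex II (-0.11), Uqcrb (-0.14), Uqcrc2 (0.14) and Atp5f1b, the catalytic beta chain of the ATP synthase (0.13), did not pass the test.

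The proteasome, which degrades ubiquitin-tagged proteins, was richer in 36 of 41 tested genes and poorer in 2, with a median of 0.70 (0.85, 0.30 and 0.83 by liver). All 17 tested alpha and beta subunits of its core were higher, with a median of 0.87, among them Psma2, which measured 10.65, 10.82 and 11.26 on polysomes and 8.89, 9.67 and 9.23 in total RNA (3.14-fold). The lower genes were Psmd1 (-0.37) and Psmd2 (-0.29), the large scaffold subunits of the regulatory particle; 1 of them was called without liver 1 and none without liver 3. Translation initiation factors had 23 of 43 higher and 7 lower, with a median of 0.34. Eif3i (1.45), Eif1b (1.22), Eif1ax (1.11) and Eif4ebp1, the translational repressor that mTORC1 phosphorylates (11.53, 11.47 and 11.89 on polysomes, 10.18, 10.90 and 10.47 in total RNA), were higher. Eif3a, the scaffold of eIF3 (-0.95), Eif4g2 (-0.82) and Eif5b (-0.69) were lower, and so was the kinase Mtor itself (-0.65, adjusted p = 0.0164; -0.10 in liver 2). Mtor was 1 of 2 lower genes in the list of the mTOR complex and its direct targets, where 15 of 32 were higher (median 0.28). It did not pass without liver 1 or without liver 3, and the higher genes of that list then numbered 9 and 8. Without liver 3 the higher genes numbered 22 in the proteasome and 12 among initiation factors, of which 2 were then lower; without liver 1 the numbers were 23, 13 and 2.

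Selenoproteins, polyamine genes and histones had more higher than lower calls. Of 18 tested selenoproteins, 12 were higher and 1 lower, with a median of 0.51 (7 were higher without liver 1 or without liver 3). Gpx4, the glutathione peroxidase that reduces lipid hydroperoxides, measured 10.98, 10.97 and 10.92 on polysomes and 9.33, 10.02 and 8.95 in total RNA, 2.87-fold higher (adjusted p = 0.000358). The polysome values were almost identical and the total values spread over 1 log2 unit. Selenop, the selenium carrier of plasma, was at -0.08 (adjusted p = 0.307). In polyamine metabolism 9 of 10 tested genes were higher and none lower, with a median of 0.52. Oaz1, the antizyme that turns over ornithine decarboxylase, was 2.20-fold and Sat1, the spermidine acetyltransferase, 2.10-fold higher, while Odc1, ornithine decarboxylase, was at 0.35 (adjusted p = 0.102). Of 20 tested histone genes on the list 12 were higher and 1 lower (median 0.74). Histones grouped by symbol instead had 8 of 19 higher and 1 lower, with a median of 0.29. Of 16 glutathione S-transferases, a group picked after the data had been seen, 13 were higher and none lower (median 0.68).

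**Figure D4:**
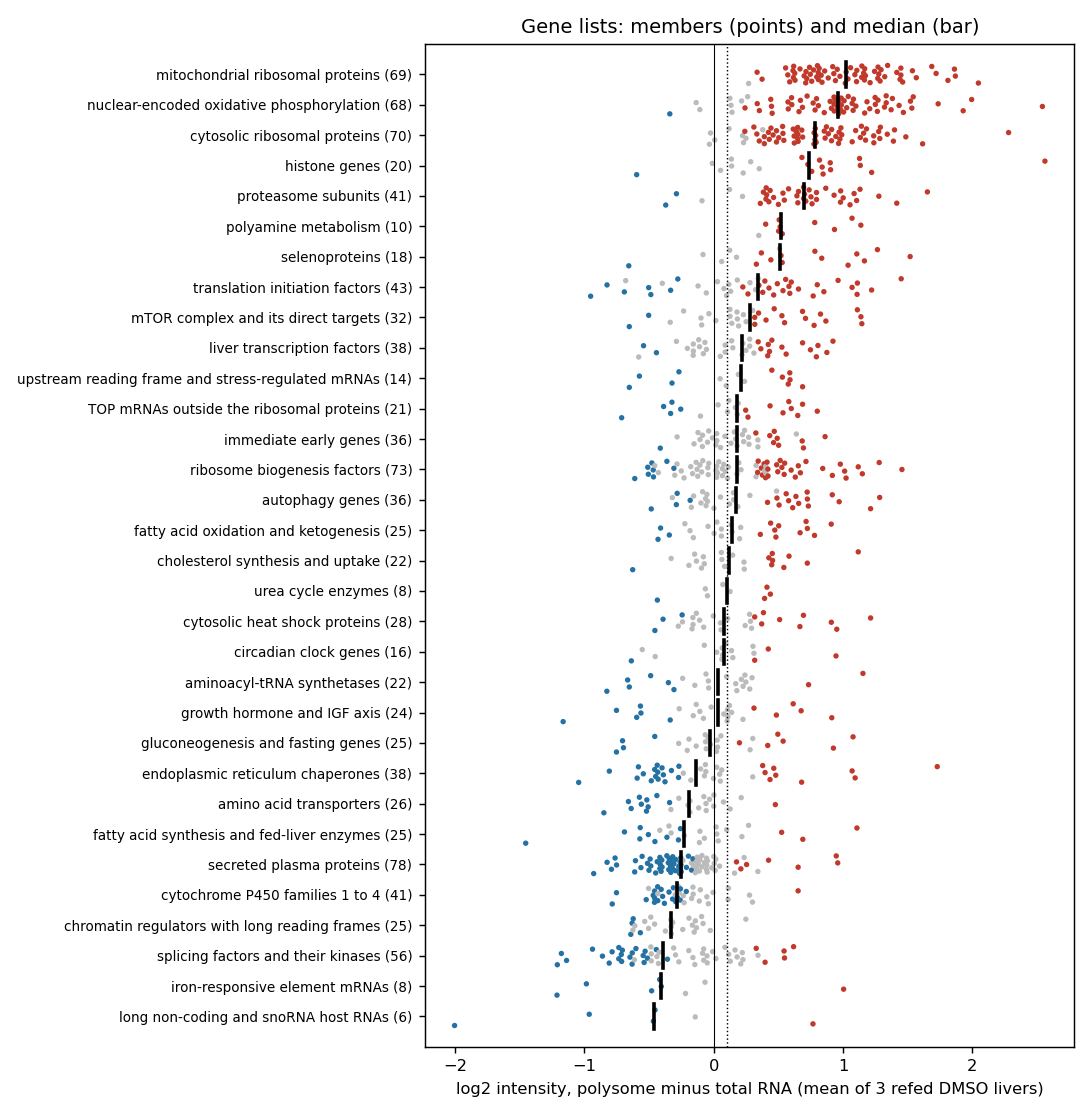
Polysome minus total log2 difference of each tested member (points; red called higher, blue lower, grey neither) of 32 gene lists in refed DMSO livers, with the list median (bar) and the median of all tested clusters (dotted line at 0.10). Mitochondrial ribosomal proteins, oxidative phosphorylation and cytosolic ribosomal proteins lie at the top, and long non-coding RNAs, iron-responsive element mRNAs and splicing factors at the bottom. Medians of 12 of the lists turned sign after cyclic loess and of 13 with equal array medians, all lists with medians from 0.03 to 0.22.

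The mRNAs of secreted plasma proteins, the most abundant in hepatocytes, were slightly poorer on polysomes than in total RNA. Of 78 tested, 44 were lower, 7 higher and 27 in neither direction, with a median of -0.25 (3 were higher without liver 1 or without liver 3). This list varied little between livers (-0.25, -0.22 and -0.21). Cp, the copper carrier ceruloplasmin, measured 12.48, 12.59 and 13.03 on polysomes and 13.38, 13.25 and 13.84 in total RNA, 1.73-fold lower without overlap (adjusted p = 0.000472). The complement component C6 (-0.93), coagulation factor F5 (-0.82) and Itih1 (-0.76), which binds hyaluronan in plasma, were lower, as were 10 of 12 coagulation factors by symbol. Albumin itself measured 14.22, 14.22 and 14.27 on polysomes and 14.45, 14.44 and 14.41 in total RNA, -0.20 (SE 0.05, adjusted p = 0.0103). These values lie near the top of the scale, where compression of signal was not tested. Apob, the very large structural protein of VLDL, was lower at -0.44 (adjusted p = 0.0017), and Apoc4 (13.90, 13.78 and 13.74 on polysomes, 12.74, 13.38 and 12.42 in total RNA), Apoa2 and Apoc1, other apolipoproteins, were higher at 0.96, 0.95 and 0.42.

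Lower calls also outnumbered higher ones among P450 enzymes and membrane transporters. Of 41 tested cytochrome P450 genes 20 were lower and 1, the vitamin D 25-hydroxylase Cyp2r1 (0.65), higher, with a median of -0.28 (-0.28, -0.37 and -0.19 by liver; 11 were lower without liver 1). Cyp3a18 (-0.78) and Cyp1a2 (-0.75) led. Amino acid transporters had 10 of 26 lower and 1 higher (median -0.19; 6 and 0 without liver 3), with Slc7a2, a cationic amino acid carrier, at -0.85. Of 36 genes of the ABC family, grouped by symbol after the data had been seen, 22 were lower and none higher. The list of endoplasmic reticulum chaperones and translocation genes had 17 of 38 lower and 9 higher (5 higher without liver 3). Several chaperones were lower, among them Hyou1 (-1.04; 10.94, 11.69 and 11.26 on polysomes, 12.06, 12.42 and 12.53 in total RNA), Hsp90b1 (-0.58), Calr (-0.44) and Hspa5 (-0.27). The higher ones included Sec61g (1.73) and Sec61b (1.07), small subunits of the translocation channel, and Ssr4 (0.68), while Sec61a1, which forms the channel, was at -0.46.

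Iron-responsive mRNAs, whose translation is blocked when iron regulatory proteins bind a hairpin in the 5′ untranslated region, were headed by ferritin. Fth1, the ferritin heavy chain, measured 12.49, 12.47 and 12.55 on polysomes and 13.70, 13.87 and 13.57 in total RNA. These groups lay more than 1 log2 unit apart in all livers, 2.32-fold lower (adjusted p = 5.87e-05), and its other cluster was lower too (-0.80). Ftl1, the light chain, was lower in all 5 of its clusters, from -0.25 to -0.63. Slc40a1, the iron exporter ferroportin (-0.48), and Epas1 (-0.40) were lower. Tfrc, the transferrin receptor, whose hairpins lie in the 3′ untranslated region and stabilise the mRNA, was lower as well (-0.98, adjusted p = 0.000293). In total 5 of 8 tested members of the list were lower and 1 higher. The higher one was Sdhb (2.01-fold), and whether the rat Sdhb mRNA carries such a hairpin was not examined.

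Enzymes of the fed state were divided. Of 25 tested genes of fatty acid synthesis and glucose use, 9 were lower and 3 higher, with a median of -0.23 (3 were lower without liver 1 or without liver 3). Acaca, acetyl-CoA carboxylase, measured 9.18, 9.43 and 9.06 on polysomes and 10.06, 9.46 and 10.22 in total RNA (-0.69, adjusted p = 0.0209). Fasn, fatty acid synthase, measured 9.76 to 10.88 on polysomes and 10.40 to 11.07 in total RNA (-0.57, adjusted p = 0.0305), with overlapping groups. Both were nearly equal between fractions in liver 2 (-0.03 and 0.01). Thrsp, a small lipogenic regulator, was 1.61-fold and Taldo1, transaldolase, 2.15-fold higher. Cholesterol genes had 8 of 22 higher and 1 lower, shares close to those of all clusters (31.6% and 11.1%; median 0.12, -0.12 and -0.14 under the other scalings; 5 were higher without liver 1 or liver 3): Idi1 was at 1.12 with overlapping groups and Dhcr7, the last reductase of the pathway, at -0.63. Genes of gluconeogenesis and fasting had 6 of 25 higher and 4 lower (24% and 16%), with a median of -0.03. Without liver 3, 3 were higher and 3 lower. Sds (1.08, with overlapping groups) and Crem (0.93) were higher. Pck1, the gluconeogenic PEP carboxykinase, was 1.63-fold lower, with 9.56, 9.98 and 9.67 on polysomes and 10.34, 10.57 and 10.42 in total RNA.

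Splicing factors and chromatin regulators varied between the livers. Of 56 tested splicing genes 22 were lower and 5 higher (3 higher without liver 3); the median was -0.39 overall but -0.60, -0.04 and -0.36 in livers 1, 2 and 3. Ccnl2, a cyclin of splicing kinases, measured 9.38, 9.77 and 9.71 on polysomes and 11.56, 10.03 and 10.89 in total RNA (-1.21, adjusted p = 0.0102). Rbm25 (-1.18 in 1 cluster; -0.49, adjusted p = 0.0742, in the other) and Hnrnpa2b1 (-0.94) were lower too, and 9 of 17 hnRNP genes were lower and 2 higher. Chromatin regulators with long reading frames had a median of -0.67 in liver 1, 0.22 in liver 2 and -0.54 in liver 3, and 4 of 25 were called lower, against 17 without liver 2 and none without liver 1 or liver 3. Splicing genes called lower numbered 10 without liver 1 and 12 without liver 3. Both lists were nearest to or above 0 in liver 2, whose total RNA array had the smallest excess of long genes (0.33). The part of that excess in these values was not tested.

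**Figure D5:**
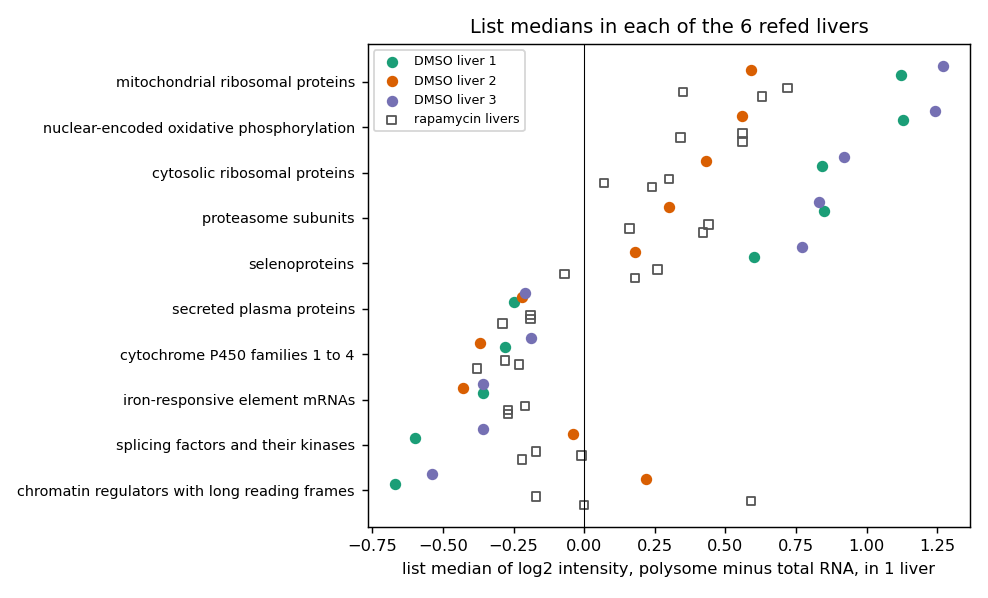
Median polysome minus total log2 difference of 10 gene lists in each of the 6 refed livers (filled circles DMSO, open squares rapamycin). Liver 2 of the DMSO group lies nearest 0 in the lists rich on polysomes, plasma protein and P450 medians lie close together in all 6 livers, and chromatin regulators span both signs.

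Markers of the other cell types of liver were measured beside these groups. The summed linear intensity of 13 hepatocyte markers was 143134 to 150689 in polysome and 158595 to 167946 in total RNA. Endothelial markers summed to 11290 to 12017 against 14549 to 15317, with 6 of 12 lower (3 without liver 3) and none higher, Egfl7 (-1.09) and Cdh5 (-0.66) leading. Stellate cell and fibroblast markers summed to 10059 to 12037 against 13617 to 15403, with 7 of 15 lower, among them Pdgfrb (-1.15), Col3a1 (-1.03) and Col1a1 (-0.85), and 1 higher, Colec11 (1.16). Kupffer cell markers overlapped between the fractions (22501 to 23664 against 19232 to 25231). Bile duct, granulocyte and lymphocyte sums overlapped as well, and erythroid sums were higher on polysomes (9937 to 11310 against 5186 to 9307). The hepatocyte markers Alb, Apob and Cps1 were near the top of the scale in every array, so the tissue label was borne out. The part of non-hepatocyte cells in the differences was not tested.

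The same comparison in refed rats given rapamycin called 1639 clusters higher (15.1%) and 532 lower (4.9%). The excess of higher calls again depended on the scaling, with 941 higher and 875 lower after cyclic loess and 657 and 1541 with equal array medians. Of the DMSO calls, 97.8% of the higher and 96.9% of the lower clusters had the same sign there. Over all tested clusters 60.9% were positive there. Of the DMSO calls 1491 and 410 were also called with rapamycin and none was called the opposite way. Both comparisons came from 1 fit with a shared estimate of the spread of each cluster, so their calls are not independent. All 15 richest genes were called in rapamycin livers (1.02 to 2.31), and all 15 poorest kept their sign, 9 of them called. Fth1 was at -1.25 and Rpph1 at -2.79. Medians of the rich lists were smaller, 0.22 for cytosolic and 0.56 for mitochondrial ribosomal proteins and 0.51 for oxidative phosphorylation, and those of plasma proteins (-0.23) and P450 genes (-0.31) nearly equal. The difference between the treatments passed the test for 0 clusters by limma, with 906 at an unadjusted p under 0.05. The excess of long genes in the total RNA arrays of the rapamycin livers was 0.45, -0.02 and 0.48, and its part in these values was not tested. Without liver 2 of the DMSO group, which shares the fit, the rapamycin counts were 2580 and 907.

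Against regenerating liver the polysome minus total difference was higher in refed liver for 1 cluster (0.00921%) and lower for 3 (0.0276%). They were 3 histone genes and a centromere gene, all expressed in dividing cells. Hist2h3c2, in 1 of its clusters, stood at 1.13 in refed and 0.22 in regenerating liver. H1f1 (0.29 and 1.81), H2bc12 (0.14 and 1.35) and the centromere protein Cenpw (-0.20 and 1.04) went the other way. Each was at adjusted p = 0.0482 by the limma test of the difference. A further Hist2h3c2 cluster, called higher on polysomes of refed liver at 1.01, did not pass this test. Without liver 2 the counts were 83 and 39, and without liver 3 none passed. The 3 polysome DMSO arrays of the hepatectomy model carry the time point of refeeding in their labels, against their titles, which were followed.

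Against fetal liver the polysome minus total difference was higher in refed liver for 2298 clusters (21.2%) and lower for 753 (6.93%). These counts became 1473 and 1271 after cyclic loess and 1411 and 1534 with equal array medians, so the excess of higher calls shrank in the first case and turned in the second. Of the 70 ribosomal protein genes 52 were higher and none lower, with a fetal median of 0.08 against 0.78. Of 69 mitochondrial ribosomal proteins 48 were higher (fetal median 0.41), and of 68 oxidative phosphorylation genes 43 (0.33), with none lower in either list. Fabp2 was at 2.35 in refed and 0.39 in fetal liver (adjusted p = 0.000685), and Rpl36, in 1 of its clusters, at 1.43 and -1.28 (adjusted p = 0.000377). In the other direction Wnk1, a kinase of ion transport, was at -0.79 and 1.22 in its dimmer cluster (adjusted p = 0.000653), while its brighter cluster, at -0.22 in refed liver, did not pass the test of the difference (-0.36, adjusted p = 0.22). Abcc6 stood at -1.39 and 0.17 (adjusted p = 0.00588). Chromatin regulators had 13 of 25 lower (-0.33 against 0.25). Of 78 secreted plasma proteins 17 were higher and 1 lower, a share of higher calls near that of all clusters, with fetal and refed medians of -0.29 and -0.25. The fetal difference changed little with gene span (0.01 in the shortest and 0.07 in the longest of the 5 groups, against 0.23 and -0.05 in refed liver). Without liver 3 the counts fell to 854 and 190, without liver 1 to 1285 and 298, and without liver 2 they were 2856 and 1264.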

How the data were processed

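The authors deposited 1 table of array intensities on a linear scale, normalised with RMA as the submitters' processing notes state. RMA settings and the build behind the probe annotation were not known here. Intensities were log2-transformed here without a pseudocount. Named transcript clusters with a mean over the 12 refed arrays at or above the 30th percentile were tested with limma 3.58.1 in R 4.3.3 (liver as a block, a polysome term per treatment, intensity trend, Benjamini-Hochberg adjustment). Differences between models came from all 40 arrays. The pairing came from equal replicate numbers: same-numbered polysome and total arrays of DMSO livers deviated together (r = 0.56, 0.46 and 0.82). Unlike-numbered pairs of livers 1 and 2 came close (r = 0.32 and 0.40), so these values hardly tell livers 1 and 2 apart. Unlike-numbered pairs with liver 3 ranged from -0.68 to -0.47. Genes were named by size (15 each way, up to 5 called per list, 5 each way per model difference) and from a short set of liver and translation genes; the members and lists were chosen with earlier results of these data known. List values use the cluster with the highest mean per gene. The fit was also run on simulated data with normal noise that was independent between arrays. Those data held no common shift and no gene-span trend between the fractions, so that run cannot speak to either. The precision is limited by the number of arrays.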

Additional observations from a re-analysis of the deposited data

Results flagged for a closer look

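Polysome minus total differences that themselves differed between models were singled out by the interaction test. Against fetal liver 2298 transcript clusters were higher and 753 lower in refed liver. Fabp2 (1.96), Nudt14 (1.83) and single clusters of Mrpl41 (1.99), Rpl36 (2.71) and Rpl21 (2.15) led in 1 direction, and Slfn4 (-1.74), single clusters of Wnk1 (-2.01) and Gtf2a2 (-1.70), Abcc6 (-1.56) and Lipogenin (-1.47) in the other. Other clusters of Rpl36 and Rpl21 gave refed differences from 0.17 to 0.92 and from -0.17 to 1.21, against 1.43 and 0.81 in these clusters. The Mrpl41 cluster was at the low end of the array in refed total RNA, and the brighter cluster of that gene differed by 0.84. The brighter cluster of Wnk1 differed by -0.36 (adjusted p = 0.22), and that of Gtf2a2 went the other way, by 0.95, and was called higher on polysomes of refed liver (1.31, adjusted p = 0.0022). In Wnk1, Slfn4, Abcc6 and Lipogenin the total RNA value of liver 2 was the lowest of the 3. Against regenerating liver 1 cluster was higher, a single cluster of Hist2h3c2 (0.91), and 3 were lower, H1f1 (-1.53), Cenpw (-1.24) and H2bc12 (-1.22).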

How the results depend on the processing

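Main counts were 3435 higher and 1206 lower clusters in refed DMSO livers, 1639 and 532 with rapamycin, 1 and 3 for refed against regenerating and 2298 and 753 for refed against fetal liver. In the same order, the unpaired fit (no replicate block) gave 2117 and 590, 340 and 112, 0 and 0, and 910 and 211. Equal array medians gave 1944 and 3633, 657 and 1541, 0 and 3, and 1411 and 1534; cyclic loess gave 2311 and 2195, 941 and 875, 0 and 3, and 1473 and 1271. With the 6 DMSO arrays alone 774 clusters were lower. For regenerating liver, no filter, a 50th percentile filter and no intensity trend each gave 0 and 0, and a filter on all 40 arrays 3 and 5. Leaving out 1 DMSO liver at a time gave 1989 to 3744 higher and 492 to 1569 lower clusters, 1373 to 2580 and 456 to 907 with rapamycin, 0 to 83 and 0 to 39 for regenerating, and 854 to 2856 and 190 to 1264 for fetal liver. Of 187 named clusters called, 117 kept their call and direction in every setting run. Among named clusters called in the main fit or in the other setting, the sign turned for Apoa1 (-0.08) and Actb (-0.25). Both turned with equal array medians. Sign changes of named clusters called in neither were not counted. List medians changed sign in 12 of 32 lists after cyclic loess and in 13 with equal medians, all among lists with a main median from 0.03 to 0.22. The cause of these changes was not tested. A description by protein length was not run. Arrays limit precision by their number: 3 livers per fraction.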
